A study of Mus musculus with 5 samples.

Results

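Chromatin around 4 genes that direct lymphoid development, Pax5, Ebf1, Gata3 and Bcl11b, was examined in mouse hematopoietic progenitor cells by chromatin immunoprecipitation and sequencing. All regions called in 4 peak lists that touched a gene's mm9 span, extended by 50 kb on either side, were taken. These were 89 of the 166982 regions in the 4 lists: 49 of 33769 H3K27me3 regions, 32 of 100189 H3K4me1 regions, 6 of 26446 C/EBPα peaks and 2 of 6578 Hoxa9 peaks. The spans were given to the nearest 1 kb, at chr4:44544000-44724000 for Pax5, chr11:44430000-44823000 for Ebf1, chr2:9778000-9801000 for Gata3 and chr12:109148000-109242000 for Bcl11b. Every library came from C57B6 bone marrow depleted of lineage-positive cells, transduced with the retroviruses MIGR1-HA-Hoxa9 and MIGR1-Flag-Meis1 and grown with IL3, so no untransduced cells were available for comparison. Hoxa9 was precipitated through the HA tag, which only the introduced protein carries, and C/EBPα, H3K4me1 and H3K27me3 with antibodies to the protein or the mark. There was 1 library for each precipitation. No value below therefore has a replicate error, and no test was made. The total reads of each library are unknown here. The fewest tags in any called region were 20 for H3K27me3, 14 for H3K4me1, 17 for Hoxa9 and 15 for C/EBPα, and weaker sites are missing from the lists.

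H3K27me3 is the mark laid down by Polycomb repressive complex 2, and broad stretches of it cover the promoters of many developmental regulators in cells that do not use them. H3K4me1 marks enhancers and the flanks of promoters. Ebf1, early B-cell factor, is a transcription factor that starts the B-cell programme, and Pax5 is a paired-domain factor that commits cells to the B lineage. Gata3 is a zinc finger factor needed for T cells and some innate lymphoid cells, and Bcl11b is a zinc finger factor of T-cell commitment. C/EBPα, of the leucine zipper class, drives myeloid differentiation, and Hoxa9 is a homeodomain factor that works with Meis1 in leukaemic transformation.

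At each gene the H3K27me3 region with the highest fold enrichment lay at or next to the 5′ end, so the promoter sequences there are shown. RefSeq sequences were found for 4 of the 4 genes, with 2 starts for Ebf1. Each runs 5′ to 3′ along the gene's strand, 300 bases around an annotated start, with CG dinucleotides in capitals. Coordinates in this paragraph are of GRCm38.p6, another build than that of the peak lists, and cannot be set against the mm9 positions used elsewhere. They are chr4:44710645-44710944 for Pax5 (minus strand), chr11:44617850-44618149 and chr11:44619978-44620277 for Ebf1 (plus strand), chr2:9878551-9878850 for Gata3 (minus strand) and chr12:108003365-108003664 for Bcl11b (minus strand).
Pax5: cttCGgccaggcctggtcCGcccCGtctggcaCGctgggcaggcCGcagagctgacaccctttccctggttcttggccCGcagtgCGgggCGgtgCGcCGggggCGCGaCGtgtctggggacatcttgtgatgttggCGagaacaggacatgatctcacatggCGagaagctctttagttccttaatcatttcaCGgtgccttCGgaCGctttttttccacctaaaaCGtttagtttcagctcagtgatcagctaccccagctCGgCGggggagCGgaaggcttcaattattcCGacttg
Ebf1, first start: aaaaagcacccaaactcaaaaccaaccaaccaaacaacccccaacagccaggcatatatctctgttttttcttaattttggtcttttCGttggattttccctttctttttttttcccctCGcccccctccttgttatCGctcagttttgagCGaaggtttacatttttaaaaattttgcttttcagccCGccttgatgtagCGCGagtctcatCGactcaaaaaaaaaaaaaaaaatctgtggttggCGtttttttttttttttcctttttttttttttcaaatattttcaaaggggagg
Ebf1, second start: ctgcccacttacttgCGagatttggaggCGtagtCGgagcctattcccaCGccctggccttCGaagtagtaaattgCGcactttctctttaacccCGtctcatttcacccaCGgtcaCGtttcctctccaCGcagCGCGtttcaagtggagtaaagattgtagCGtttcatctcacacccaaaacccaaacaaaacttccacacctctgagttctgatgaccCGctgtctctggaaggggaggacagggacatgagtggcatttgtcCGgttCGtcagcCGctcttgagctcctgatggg
Gata3: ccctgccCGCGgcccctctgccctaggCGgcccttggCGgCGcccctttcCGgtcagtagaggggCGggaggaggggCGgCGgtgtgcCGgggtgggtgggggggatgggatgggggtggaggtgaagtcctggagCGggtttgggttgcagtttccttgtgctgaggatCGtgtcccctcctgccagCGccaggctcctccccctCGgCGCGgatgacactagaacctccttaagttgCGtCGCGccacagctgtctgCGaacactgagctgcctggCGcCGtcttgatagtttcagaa
Bcl11b: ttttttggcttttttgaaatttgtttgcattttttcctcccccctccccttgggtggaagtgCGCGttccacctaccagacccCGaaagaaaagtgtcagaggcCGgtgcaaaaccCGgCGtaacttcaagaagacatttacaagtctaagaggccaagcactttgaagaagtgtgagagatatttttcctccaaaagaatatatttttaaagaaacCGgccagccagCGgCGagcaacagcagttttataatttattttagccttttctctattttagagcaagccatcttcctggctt

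The Pax5 promoter held 23 CG dinucleotides, that of Gata3 22, the second of Ebf1 17, and the first of Ebf1 and that of Bcl11b 9 each. Over all 32851 promoters in the table the median was 7, and 21.5% of them held as many as Pax5, 23.1% as many as Gata3, 31.4% as many as the second Ebf1 start and 45.8% as many as Bcl11b. The Pax5 and Gata3 promoters thus had the most CG, with G or C at 59% and 67.3% of bases. The Bcl11b promoter was near the middle of the table in CG, and its 43% G or C was below the median of 52.7%. The letters TTGCNNAA, a C/EBP site, occurred in 0 of these 5 promoters on either strand and in 10.8% of all promoters. TGATTTAT, a Pbx-Hoxa9 site, was in 0 of 5 and in 0.977% of all promoters, and TGACAG, a Meis site, in 0 of 5 and 19.2%. With 0 matches none overlapped another, and their absence says only that these letters are not in these windows.

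All 4 genes carried broad, strongly enriched H3K27me3 at the 5′ end of the span. Within 5 kb of that end on either side, called H3K27me3 regions covered 100% of the bases at Pax5, 99.2% at Ebf1, 97.6% at Bcl11b and 89.4% at Gata3. A single region contained the 5′ end at 3 genes. At Gata3 the 5′ end fell in a gap of 1062 bp between a pair of regions, too short for a span given to the nearest 1 kb to place it against the start. Farther out the genes differed: within 20 kb on either side, the covered share was 86.3% at Pax5, 63.5% at Gata3, 36.6% at Bcl11b and 35% at Ebf1.

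**Figure D1:**
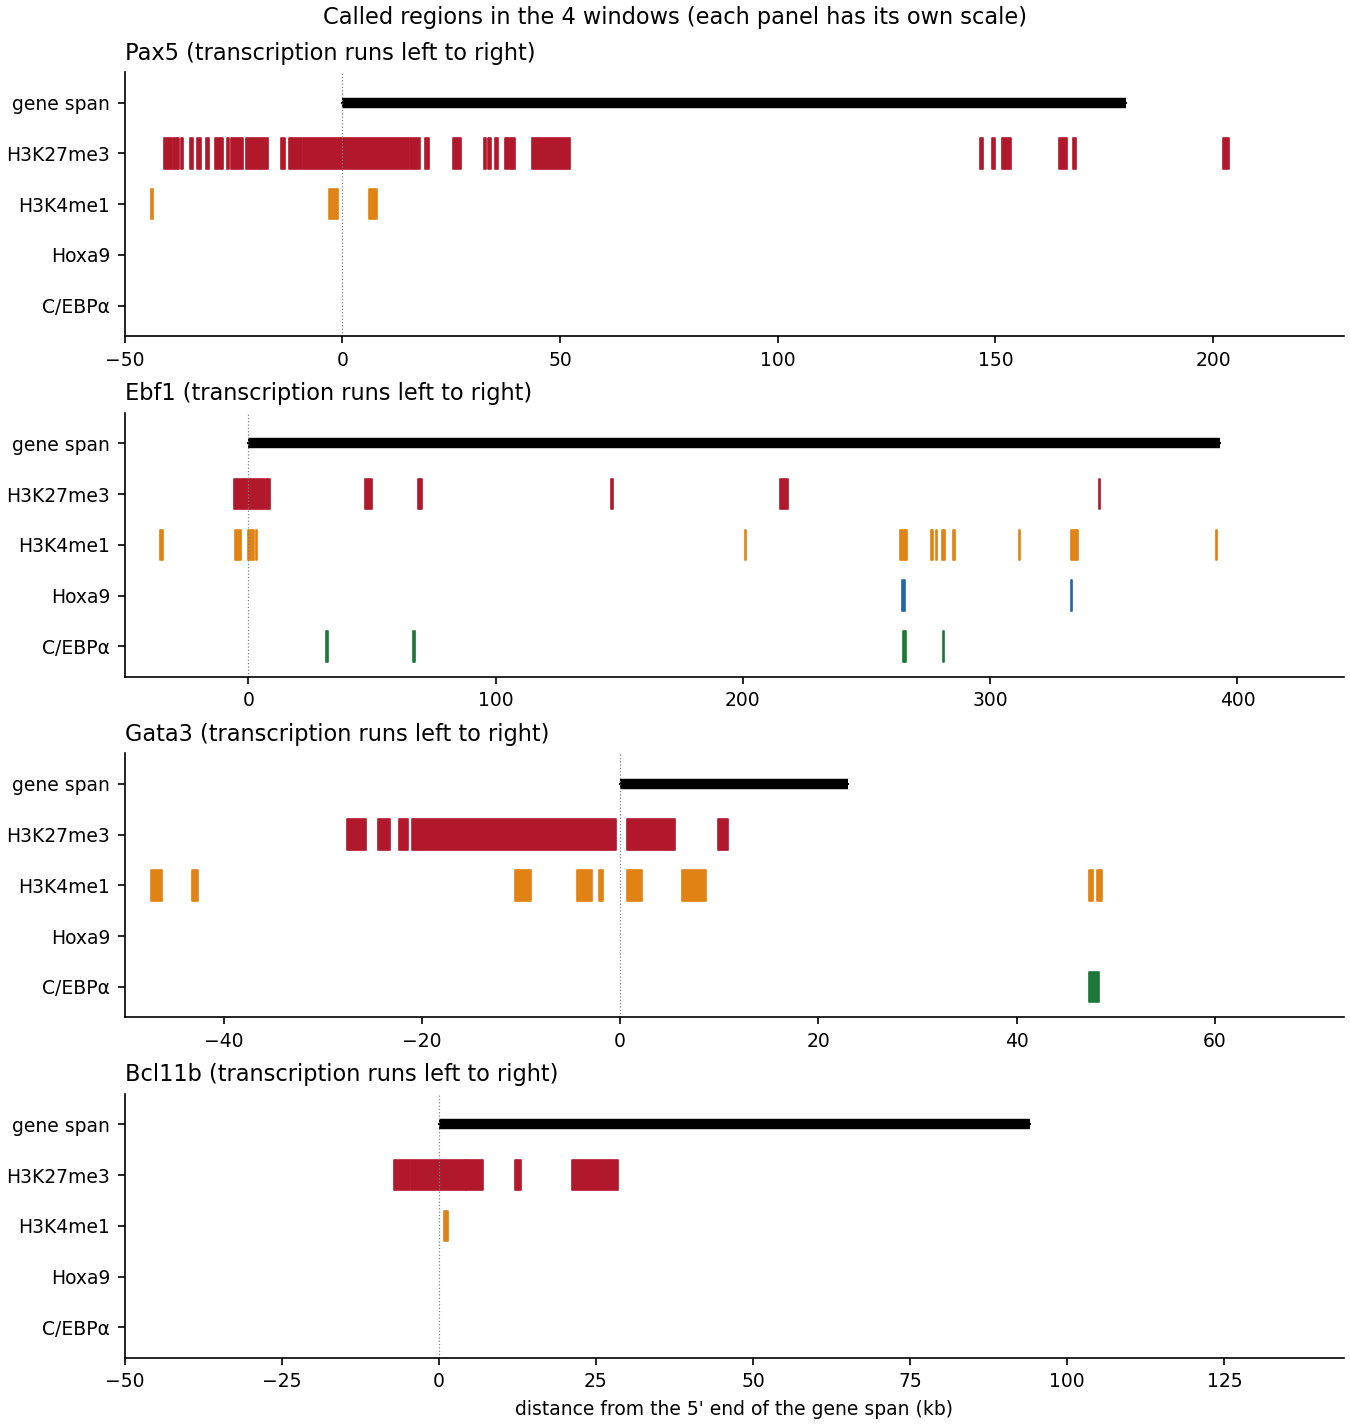
Called regions of the 4 lists in each window, drawn by distance in kb from the 5′ end of the gene span (black bar), with 50 kb on either side; regions narrower than the line are drawn at line width. H3K27me3 sits over the 5′ end at Pax5, Ebf1 and Bcl11b and on both sides of it at Gata3. Factor peaks are drawn only for Ebf1 (2 Hoxa9, 5 C/EBPα) and Gata3 (1 C/EBPα).

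Extent differed even more over whole genes. H3K27me3 covered 25.3% of the 23 kb Gata3 span, 21.9% of the 180 kb Pax5 span, 16.2% of the 94 kb Bcl11b span and 4.47% of the 393 kb Ebf1 span. In length the order was another: 39.35 kb of the span at Pax5, 17.58 kb at Ebf1, 15.21 kb at Bcl11b and 5.81 kb at Gata3. The covered length of the whole window was 70.01 kb at Pax5, 30.39 kb at Gata3, 23.22 kb at Ebf1 and 21.93 kb at Bcl11b. Pax5 therefore held more H3K27me3 than any of the other 3 windows. Ebf1, the longest gene, held about as much as Bcl11b. The genome was divided into consecutive tiles of each window's length to set these values beside the rest. As much H3K27me3 was found in 1.09% of 9185 tiles for Pax5, 2.04% of 20919 for Gata3, 6.2% of 13260 for Bcl11b and 16.8% of 5213 for Ebf1. By this measure the Ebf1 window was the least unusual of the 4.

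The 49 H3K27me3 regions are described by score. In the whole list of 33769, 2558 regions had a score of 3100 and 31130 a lower one. The rest were not below 3100, so that score is not the top of the list. Of the 49, 8 had a score of 3100, 2 at each gene. They were between 3.946 and 24.494 kb wide, with fold enrichments of 18.62 to 36.9. The other 41 had lower scores, widths of 511 to 4894 bp and fold enrichments of 3.64 to 13.88, and their median width of 973 bp and median fold of 6.09 lay near those of the whole list, 903 bp and 5.76. These 8, called strong below, held 0.1427 to 0.2349 tags per bp and the others 0.0488 to 0.1161. The caller makes the score from tags and enrichment, so these values describe the split by score and are no separate evidence of it. The score and fold come from the authors' caller and are used only to rank regions within the list. Most tags at each gene lay in the pair of strong regions: 74.2% of 9499 at Pax5, 75.6% of 3791 at Ebf1, 93.8% of 5654 at Gata3 and 89.5% of 3640 at Bcl11b.

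**Figure D2:**
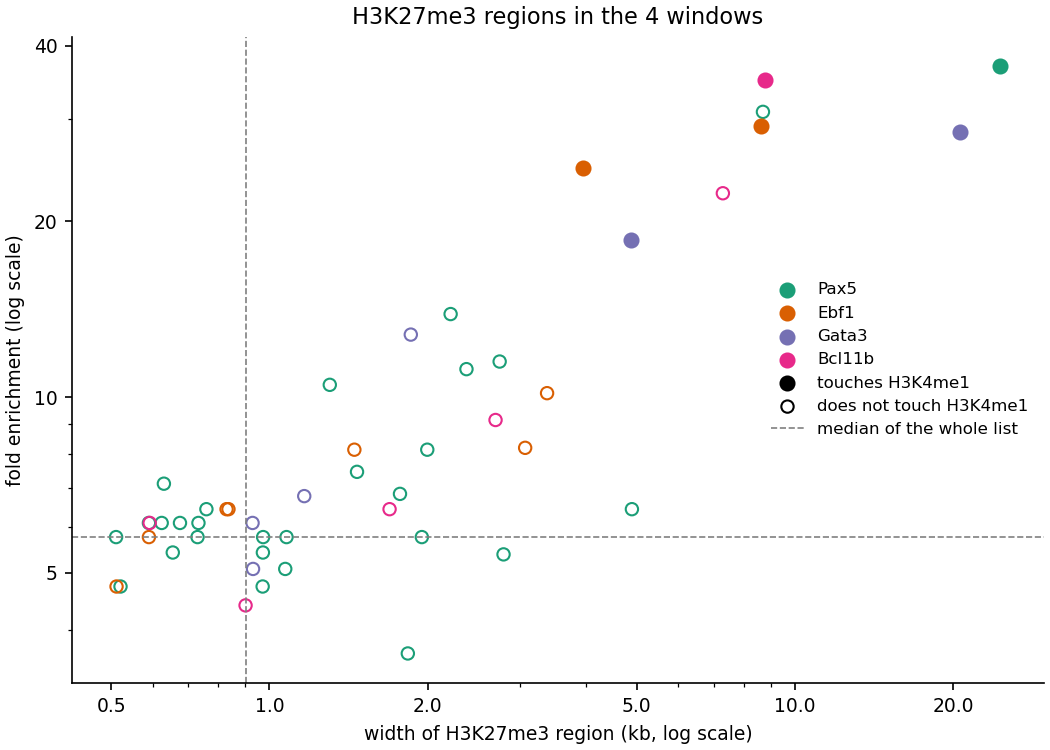
Width in kb against fold enrichment, both on log axes, for the 49 H3K27me3 regions; colours show the gene, filled points touch an H3K4me1 region, and dashed lines are the medians of the whole list. The 6 filled points are all among the 8 regions with fold enrichments of 18.62 or more.

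Pax5 had the widest single H3K27me3 region. This region, chr4:44708579-44733072, was 24.494 kb wide with 5671 tags and a fold enrichment of 36.9. It reached from 9.072 kb upstream of the 5′ end to 15.421 kb inside the gene, and only 0.264% of H3K27me3 regions in the list were as wide. With regions joined over gaps of up to 5 kb, it formed part of a stretch of 15 regions, 60.961 kb long, from 41.023 kb upstream to 19.937 kb inside the gene, 78.9% of which was covered. The stretch ranked 83rd by length among 15088 in the genome, which had a median of 2.531 kb. Its length rests on the join, since joining gaps of up to 2 kb gave 34.086 kb and up to 10 kb gave 93.334 kb. It was the longest of the 4 with this join, and not under 2 stricter selections. Keeping only regions with fold enrichments of at least 10 left 26.9 kb at Pax5, and keeping the upper 50% by score left 29.953 kb, against 33.059 kb at Gata3 in both cases.

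Much of the Pax5 mark lay outside the gene. The 5′ flank of 50 kb was 58.7% covered, by 12 regions that lay wholly in it and the end of the widest one, against 2.61% of the 3′ flank, where 1 region was called. In the RefSeq order the next protein-coding gene upstream is Zcchc7, and where it begins in mm9 was not determined. The flank regions were weaker than the main one, for example chr4:44741172-44746065 with 303 tags over 4.894 kb and a fold enrichment of 6.43. Inside the gene, a separate strong region at chr4:44671690-44680377, 8.688 kb wide with a fold enrichment of 30.81, lay 43.623 to 52.31 kb from the 5′ end. It touched no H3K4me1. Beyond it, 94.185 kb of the gene held no call of any of the 4 lists, and 5 smaller regions followed from 146.496 to 168.508 kb.

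Gata3 carried its mark mostly upstream. The widest region, chr2:9801404-9822027, was 20.624 kb wide with 4608 tags and a fold enrichment of 28.44, and it lay wholly in the 5′ flank. Upstream of the 5′ end, 98% of the first 20 kb was covered, and downstream 29.1%. The downstream part was chiefly chr2:9795457-9800341, 4.885 kb wide with 697 tags and a fold enrichment of 18.62, at 0.1427 tags per bp the least dense of the 8 strong regions. The upstream one had 0.2234. All 6 regions of the window joined into 1 stretch of 38.357 kb, and only 1.77% of stretches in the genome were as long. RefSeq lists the long noncoding RNAs 4930412O13Rik and 9230102O04Rik as overlapping Gata3, and where they lie in mm9 was not determined.

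Bcl11b had a compact block. The region at its 5′ end, chr12:109237676-109246440, was 8.765 kb wide with 2001 tags and a fold enrichment of 34.87, the second highest of the 49, and reached 4.44 kb upstream and 4.324 kb into the gene. With its neighbours it made a stretch of 14.111 kb that was 97.4% covered. A second strong region, chr12:109213503-109220791, 7.289 kb wide with a fold enrichment of 22.35, lay 21.209 to 28.497 kb inside the gene and touched no H3K4me1. The rest of the gene and its 3′ flank, 115.503 kb, held no call of any list, and neither did the outer 42.936 kb of the 5′ flank.

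Ebf1 had a block of similar size at the start of a much longer gene. A pair of strong regions, chr11:44424278-44428223 (3.946 kb, 927 tags, fold enrichment 24.72) and chr11:44428309-44436919 (8.611 kb, 1939 tags, fold enrichment 29.12), were parted by 85 bp. With a weaker region beside them they made a stretch of 14.461 kb from 5.722 kb upstream to 8.738 kb inside the gene, 96.9% covered. Only 6 weaker regions followed over the rest of the gene, among them chr11:44645097-44648471 with a fold enrichment of 10.16 and chr11:44477174-44480239 with 8.19. Downstream of the first of these, 125.523 kb held no H3K27me3 call. Of stretches in the genome, 9.62% were as long as that of Ebf1 and 9.99% as long as that of Bcl11b, against 0.55% for Pax5.

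**Figure D3:**
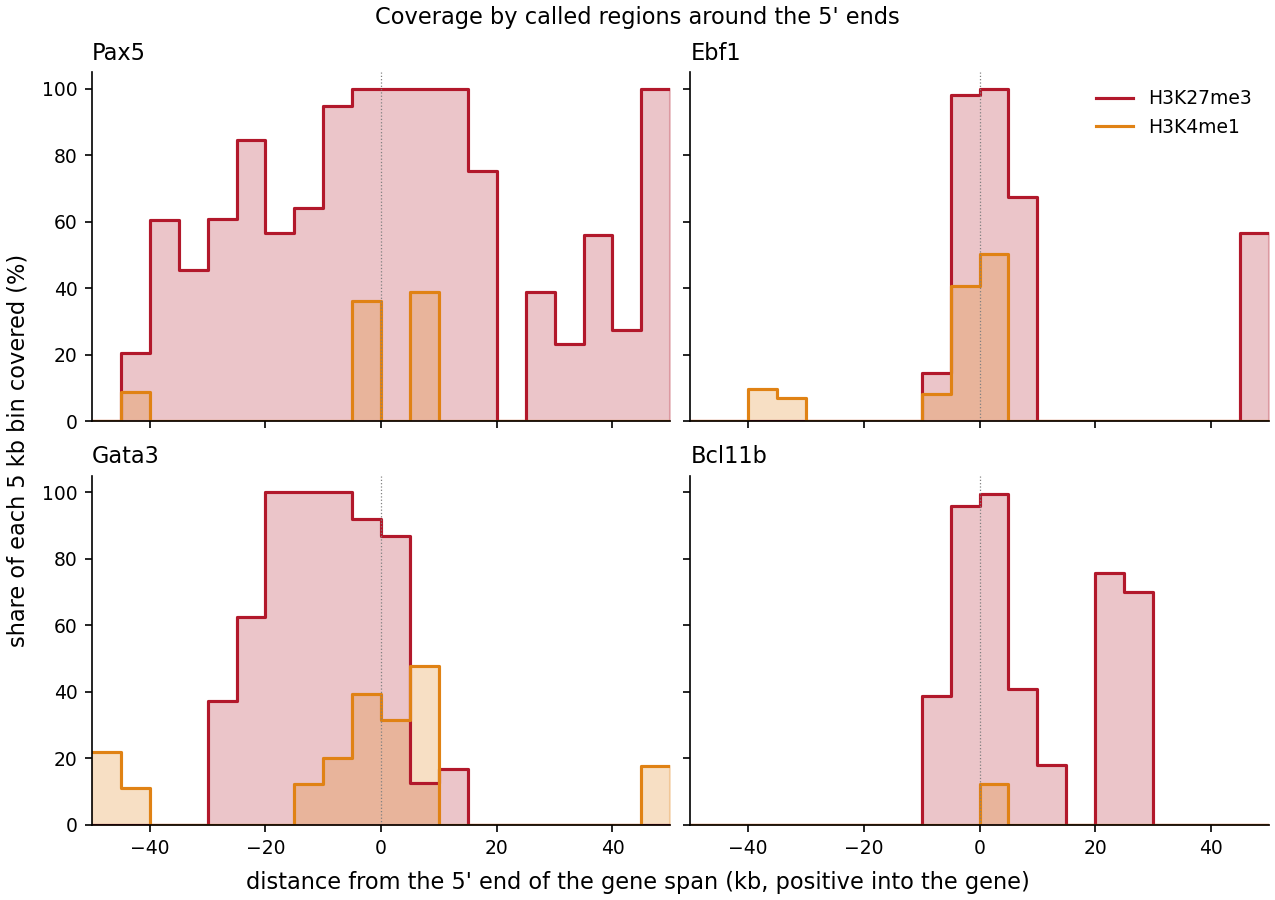
Share of each 5 kb bin covered by H3K27me3 and H3K4me1 regions, from 50 kb upstream to 50 kb downstream of the 5′ end of each span. H3K27me3 covers most of the bins next to the 5′ end at all 4 genes and extends farther upstream at Pax5 and Gata3, with H3K4me1 inside it.

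H3K4me1 lay inside the Polycomb-marked 5′ ends at all 4 genes. Of the 32 H3K4me1 regions, 13 touched H3K27me3, a share of 40.6% (exact Clopper-Pearson interval at 95%, 23.7 to 59.4, counting error only), against 6.85% of the whole H3K4me1 list. Regions side by side at 4 genes are not independent, so the interval is no test against the list. The 4 windows also had more H3K27me3 to touch: it covered 4.71% to 25% of them. Of the 13 regions, 12 lay wholly inside H3K27me3. The exception, at Gata3, had 1565 of its 1574 bp inside. All 13 lay within 9.001 kb of a 5′ end, and the 19 others were between 6.285 and 391.219 kb away.

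Seen from H3K27me3, 6 of the 49 regions touched H3K4me1, or 12.2%, against 14.6% of the whole list. The 6 were the strong regions at or next to the 5′ ends: 1 at Pax5, 2 at Ebf1, 2 at Gata3 and 1 at Bcl11b. Of the regions with a score of 3100, 6 of the 8 here touched H3K4me1, against 76% in the whole list. Below that score the shares were 0 of 41 here and 9.49% in the list. The strong regions that H3K4me1 did not touch were those inside Pax5 and Bcl11b.

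The H3K4me1 regions differed in number from gene to gene. The Ebf1 window held 18, that of Gata3 9, that of Pax5 4 and that of Bcl11b 1, covering 3.04%, 8.19%, 1.5% and 0.313% of each window. As few or fewer were found in 63.1% of tiles for Ebf1, 79.3% for Gata3, 55% for Pax5 and 50.8% for Bcl11b, so none of the windows was poor in H3K4me1 beside the genome at large. Tiles with as much H3K27me3 held more than the windows of Pax5, Bcl11b and Ebf1, by the median, and not more than that of Gata3. Their median number of H3K4me1 regions was 19 for Pax5 and 13 for Bcl11b, and 4% and 4.74% of such tiles held as few. For Gata3 the median was 8 and for Ebf1 36, and 57.1% and 23% held as few. These shares are descriptions of single libraries.

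At Pax5, 3 of the 4 H3K4me1 regions were inside the widest H3K27me3 region. The strongest, chr4:44716015-44717965, had 95 tags and a fold enrichment of 6.57 and lay 6.035 kb into the gene. A pair upstream, chr4:44725032-44725554 and chr4:44725754-44727046, had fold enrichments of 2.85 and 4.73. The first of these was among the weakest in the list, 96.4% of which had as high a fold. The fourth, in the far 5′ flank, had 14 tags, the lowest number called, and lay 2562 bp from H3K27me3.

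At Ebf1, 5 H3K4me1 regions lay side by side over 8.897 kb around the 5′ end, all wholly inside H3K27me3. Their fold enrichments ran from 4.89 to 7.16, the highest at chr11:44425828-44427262, and 1 of them, chr11:44429862-44430983, contained the 5′ end of the span. At Gata3, 5 regions were spread over 19.289 kb around the 5′ end. The strongest of all 32, chr2:9798777-9800350, had 102 tags and a fold enrichment of 8.07, and 3 more lay in the upstream H3K27me3 region with folds of 4.51 to 6.97. The widest, chr2:9792329-9794715 (2387 bp, fold enrichment 5.88), lay beside the mark, 742 bp from it. At Bcl11b the only region, chr12:109240488-109241094, had 19 tags over 607 bp and a fold enrichment of 6.67, and lay 0.906 kb into the gene inside H3K27me3.

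Regions that touched H3K27me3 were not weaker than the others. Their median fold enrichment was 5.49 against 4.58 in the 19 others and 4.84 in the whole list, and their median width was 1122 bp against 542 bp and 768 bp. The ranges of fold overlapped, 2.85 to 8.07 against 2.94 to 7.71. None of the 13 touched a Hoxa9 or C/EBPα peak, and among the 19 others 3 touched Hoxa9 and 6 touched C/EBPα. Over all 32 the shares were 9.38% with Hoxa9 and 18.8% with C/EBPα, against 6.22% and 19.9% of the whole H3K4me1 list, and nothing is read from a count of 0 among 13 regions. In bulk libraries, marks on the same allele and marks in different cells cannot be told apart.

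**Figure D4:**
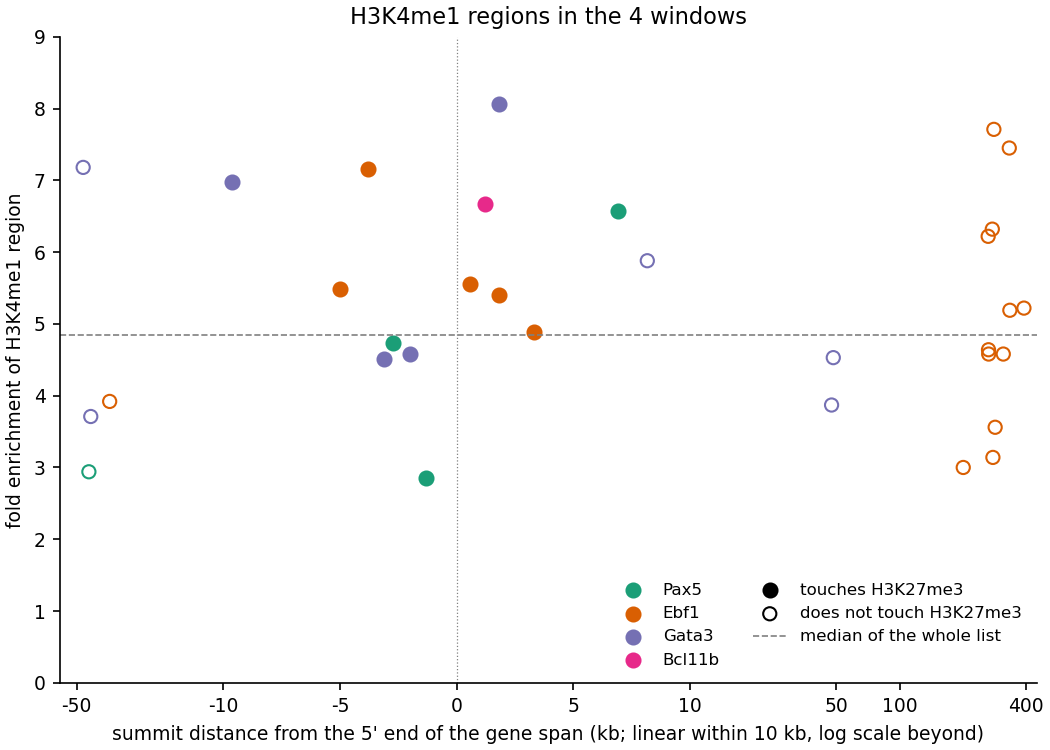
Distance of each H3K4me1 summit from the 5′ end of its gene span, in kb (linear within 10 kb, log scale beyond), against fold enrichment; colours show the gene, filled points touch H3K27me3 and the dashed line is the median of the whole list. All 13 filled points are near the 5′ ends, and most of the 19 open points are Ebf1 regions far inside the gene.

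Ebf1 was the only gene of the 4 with factor peaks in its span. A pair of C/EBPα peaks began 31.51 and 66.737 kb from the 5′ end, and the other 5 peaks began 264.423 to 332.581 kb from it. Its window held 2 Hoxa9 and 5 C/EBPα peaks, and 0 of the 7 touched H3K27me3. As few or fewer were found in 81.3% of tiles for Hoxa9 and 63.8% for C/EBPα. The strongest Hoxa9 peak, chr11:44694423-44695463, had 90 tags and a fold enrichment of 14.15, and 6.75% of Hoxa9 peaks had as high a fold. Its summit was 18 bp from that of the C/EBPα peak chr11:44694655-44695382, with 49 tags and a fold enrichment of 11.48. Both summits, about 265.04 kb into the gene, fell in a gap of 243 bp between H3K4me1 regions, and the nearest H3K27me3 was 45952 bp away.

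A small cluster surrounded this shared site. Another C/EBPα peak, chr11:44695562-44696116, had 23 tags and a fold enrichment of 7.41, 99 bp from the Hoxa9 peak. Together with 3 H3K4me1 regions they spanned 2.599 kb. A group of 4 more H3K4me1 regions followed over 9.383 kb, with the C/EBPα peak chr11:44710869-44711260 (16 tags, fold enrichment 4.94) inside its strongest member, chr11:44710521-44711820, which had a fold enrichment of 7.71. The second Hoxa9 peak, chr11:44762581-44763023, was weak, with 18 tags and a fold enrichment of 5.58, and overlapped an H3K4me1 region with a fold of 7.45. The stretch of 125.523 kb free of H3K27me3 held 10 of the 18 H3K4me1 regions, both Hoxa9 peaks and 3 of the 5 C/EBPα peaks.

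The remaining C/EBPα peaks of Ebf1 were nearer the start and without H3K4me1. They lay at chr11:44461510-44462066 (22 tags, fold enrichment 5.45) and chr11:44496737-44497296 (21 tags, fold enrichment 6.51), 28021 and 63248 bp from the nearest H3K4me1 region. The second was 1357 bp from an H3K27me3 region, the shortest such distance of any factor peak here. Both were below the median fold of the C/EBPα list, 7.74. So were the Ebf1 peaks with folds of 7.41 and 4.94, which touched H3K4me1, while that with 11.48 was above it.

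Gata3 had 1 factor peak, in its 3′ flank. The C/EBPα peak chr2:9752718-9753687, 24.313 kb beyond the span, had 84 tags and a fold enrichment of 15.77, the highest of the 6 C/EBPα peaks here, and 18% of C/EBPα peaks had as high a fold. It bridged a pair of weak H3K4me1 regions with folds of 4.53 and 3.87, its summit lying in the gap of 403 bp between them. No Hoxa9 peak touched it, and H3K27me3 was 36472 bp away. A Hoxa9 peak at chr2:9724184-9724699, with 24 tags and a fold enrichment of 4.76, lay 53.301 kb from the span, just outside the limit of 50 kb.

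Pax5 and Bcl11b had 0 peaks of either factor in windows of 280 and 194 kb. Such absence was common. Of tiles of these lengths, 64.6% for Pax5 and 71.8% for Bcl11b held 0 Hoxa9 peaks, and 39.5% and 46.6% held 0 C/EBPα peaks. For Gata3, 79.6% of tiles held 0 Hoxa9 peaks and 71.3% held 1 C/EBPα peak or fewer. Among tiles with as much H3K27me3 as the Pax5 window, 44% held 0 Hoxa9 peaks and 5% held 0 C/EBPα peaks, and for Bcl11b the shares were 53.9% and 14.5%. Matched in this way to Gata3, 70.7% held 0 Hoxa9 peaks and 50.4% held 1 C/EBPα peak or fewer. Matched to Ebf1, 73.2% held 2 Hoxa9 peaks or fewer and 33% held 5 C/EBPα peaks or fewer.

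Over the 4 windows, 4 of 6 C/EBPα peaks and 2 of 2 Hoxa9 peaks touched H3K4me1, against 73.6% and 82.4% of the whole lists. None of the 8 touched H3K27me3, against 2.09% of the C/EBPα list and 1.49% of the Hoxa9 list. With 8 peaks, contact at the shares of the lists would not be detectable.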

How the data were processed

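ChIP-seq peak lists of 4 libraries were analysed; input was not used here. The submitters' processing notes name CASAVA 1.8.2, BWA 0.6.2, MACS 1.4 and build mm9. No source here states caller settings or control. Per the file headers, the authors deposited for each region a count of tags, a score (10 times −log10 of p), a linear fold enrichment and a false discovery rate in percent. The values are the caller's, from separate calls per library. Scores of exactly 3100 are ties.

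The 4 genes, windows and descriptions were chosen with earlier results of these data known. Regions were shared at 1 bp or more of overlap, and H3K27me3 regions were joined over gaps of up to 5 kb. Tiles of each window's length ran over the span of the lists on 20 chromosomes. Interval code (Python 3.11.15, pandas 2.3.3) was tested on simulated lists. Positions of other lymphoid genes in mm9 were not used here, since the RefSeq tables are of GRCm38.p6. They served for strand, gene order and promoters. Regions to be named were all factor peaks, and per gene the widest, the strongest and those touching the other mark. Others named for gaps or for contrast were picked after their values were seen. Alternatives covered thresholds, flanks, joins and overlap.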

Additional observations from a re-analysis of the deposited data

How the results depend on the processing

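Of 168 alternatives to 25 results, 126 stayed within the interval of a share or within 1.5 times a count or length, and 42 moved farther. A change of direction was not assessed. For coverage, the exact binomial interval counted each kb of the span as 1 trial. Neighbouring kb are not independent, so it is a yardstick and no measure of error. Counts of 0, such as both factors at Pax5 and Bcl11b, could not change under settings that only remove regions, and are among the 126. At a false discovery rate of 1% or less none of the results per gene moved by so much, and the pooled share was not run. That setting removed only H3K27me3 regions. No H3K4me1, Hoxa9 or C/EBPα region had a rate above 0.5%, so their counts could not change. The longest H3K27me3 stretch of Pax5, 60.961 kb, became 26.9 kb at a fold enrichment of 10 or more, 29.953 kb in the upper 50% of the list by score, 34.086 kb with gaps of up to 2 kb joined and 93.334 kb with gaps of up to 10 kb. That of Gata3 was 33.059 kb in the first 3 of these settings, longer than that of Pax5 in the first and second. That of Bcl11b, 14.111 kb, became 8.765 kb at a fold of 10 or more and 35.562 kb with gaps of up to 10 kb. Coverage of the Ebf1 span was 2.62% at a fold of 10 or more, against 4.47% with all regions. H3K4me1 counts fell under stricter selection. The median fold of the whole H3K4me1 list was 4.84, so a cut at 5 removes most of that list too. At a fold of 5 or more the windows of Pax5, Ebf1 and Gata3 held 1, 10 and 4. Of these, 1 at Pax5, 4 at Ebf1 and 2 at Gata3 touched H3K27me3. Bcl11b kept its 1, which touched it. At 10 or more all 4 windows held 0, and 0 touched H3K27me3. In the upper 50% by score the counts were 2 at Pax5, 8 at Ebf1, 5 at Gata3 and 0 at Bcl11b, where 0 then touched H3K27me3. Without flanks Pax5 kept 1 H3K4me1 region, which touched H3K27me3, Gata3 held 2, of which 1 touched it, Ebf1 had 3 that touched it, and Gata3 had 0 C/EBPα peaks. With flanks of 100 kb the H3K4me1 counts were 7 at Pax5, 36 at Ebf1, 15 at Gata3 and 4 at Bcl11b, with 1 C/EBPα peak at Pax5, and 3 Hoxa9 and 6 C/EBPα peaks at Gata3. Ebf1 held 1 Hoxa9 and 1 C/EBPα peak both at a fold of 10 or more and in the upper 50% by score. These settings remove regions or change the window by construction. The pooled share of H3K4me1 regions touching H3K27me3, 40.6%, ran from 35.7% to 57.1% without each gene in turn, a setting added after seeing the data. No paired analysis was possible because each precipitation had 1 library. Depth limits the calling of weak peaks, and the total reads of each library are unknown here.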

Other observations

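Beyond the windows, the nearest factor peaks lay at very different distances from the spans. Upstream of Gata3, a C/EBPα peak (fold enrichment 11.43) and a Hoxa9 peak (fold enrichment 12.01) lay 90.153 and 91.555 kb away, both in contact with H3K4me1, and the nearest Hoxa9 peak downstream was 53.301 kb away. For Bcl11b the nearest C/EBPα peak was 305.508 kb upstream and the nearest Hoxa9 peak 449.677 kb upstream, and downstream both factors first appeared 760.513 to 760.701 kb away, at 1 shared site with Hoxa9 fold enrichment 11.39 and C/EBPα fold enrichment 6.65. That upstream Hoxa9 peak (44 tags, fold enrichment 7.89) touched H3K4me1, H3K27me3 and C/EBPα alike. It was the only one of the 16 peaks nearest to the spans on either side to touch H3K27me3. In the whole lists 1.49% of Hoxa9 and 2.09% of C/EBPα peaks did, and nothing is read from 1 peak. Of the 16, the C/EBPα peak 24.313 kb downstream of Gata3 lay inside its window. For Pax5 the nearest C/EBPα peak was 72.808 kb upstream and the nearest Hoxa9 peak 251.493 kb upstream, with 458.079 and 515.857 kb downstream. For Ebf1 they were 66.157 and 111.932 kb upstream, and 785.008 and 795.917 kb downstream. These peaks were picked for distance alone and may belong to other genes.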
